A study of Mus musculus with 6 samples.

Results

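ATF4 is a transcription factor of the cell's response to amino acid shortage and other translational stress. The genes described here are Atf4 and 9 of its classical amino acid response targets, Ddit3, Asns, Chac1, Trib3, Sesn2, Ddit4, Psat1, Phgdh and Slc7a11. They were taken by symbol from the count table, which held all 10 of them among 24498 genes. All 10 had counts in each of the 6 libraries and were among the 13846 genes tested. Bulk RNA-seq was made on reporter-positive epithelial cells sorted from the digested prostate of male mice. In the groups named Nkx, Nkx3.1-CreER(T2) mice had been crossed to carry a Rosa26 EYFP reporter, and in the group named Clu, Clu-CreER(T2) mice had been crossed to carry a Rosa26 tdTomato reporter. All mice were 7 to 13 weeks old. The Nkx castrate group lost its testes by surgery at the age of 8 weeks and was sampled after a further 4 weeks, while Nkx intact and Clu intact mice had no castration. The same start at 8 weeks and interval of 4 weeks are listed for the intact libraries. Each of these 3 groups had 2 libraries, named here by group and replicate number. The marker reports the past activity of the driver gene's recombinase, so a marked cell need not express that driver when it is sorted. The lines differ in both driver and reporter, and the labels used here do not say when the recombinase was induced or whether replicate libraries stem from different mice. A p-value here therefore reflects library-to-library spread, possibly technical. In the main test the 3 groups share a common estimate of that spread. A library of the group outside a comparison therefore also bears on its p-values.

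When amino acids run short or unfolded protein accumulates, kinases phosphorylate the translation factor eIF2, general protein synthesis slows, and the Atf4 message is translated more efficiently. ATF4 protein is thus controlled largely at translation, and the level of Atf4 mRNA is an incomplete measure of its activity. ATF4 pairs with C/EBP-family and other bZIP proteins at composite elements to induce amino acid synthesis and transport, and also genes that restrain growth or promote cell death. The secretory luminal cells of the prostate make large amounts of protein under androgen control.

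Depth lay between 10220118 and 17412874 counts, and levels are given as CPM, counts scaled to 1000000 per library after TMM normalisation by a trimmed mean of gene ratios, so that 1 count was worth 0.0561 to 0.0988 CPM. The epithelial genes Epcam (336 to 839 CPM) and Cdh1 (810 to 1902 CPM) were present in every library, and the secretory gene Pbsn was at 5393 and 6937 CPM in the Nkx intact libraries, 106 and 112 CPM after castration, and 2634 and 1957 CPM in the Clu libraries. Nkx castrate 1 stood apart in marker RNA of leukocytes, fibroblasts and smooth muscle, and Clu intact 1 had the most endothelial marker RNA. The sum over 19 leukocyte markers was 545 CPM there, 131 CPM in Nkx castrate 2, and 70.1 to 252 CPM elsewhere. For 16 markers of fibroblasts and smooth muscle it was 2803 CPM there, 690 CPM in Nkx castrate 2, and 730 to 1201 CPM elsewhere. For 12 endothelial markers the castrate libraries had 515 and 78.6 CPM, the Nkx intact libraries 90.7 and 64.9 CPM, and the Clu libraries 1167 and 473 CPM. Epithelial lineages differed too. The sums over 12 distal luminal markers were 18227 and 22271 CPM in the Nkx intact libraries, 5604 and 6847 CPM after castration, and 11523 and 9624 CPM in the Clu libraries. Of these 12, 5 were lower and 3 higher after castration at adjusted p under 0.05 (edgeR), against 8.61% of all tested genes. Their keratin Krt8 was at 792 and 705 CPM, 2180 and 2558 CPM, and 1169 and 1441 CPM in the same order. Krt18 was at 1168 and 942 CPM, 2132 and 2590 CPM, and 621 and 561 CPM. The sum over 10 proximal luminal markers was 1018 and 1021 CPM, 2897 and 4095 CPM, and 8074 and 9213 CPM in the same order. That over 12 basal markers was 5856 and 6021 CPM, 5564 and 3459 CPM, and 3469 and 3573 CPM in that order. Over 6 urothelial markers it was 123 and 155 CPM, 352 and 534 CPM, and 353 and 393 CPM in that order. Over 8 seminal vesicle markers it was 82.8 and 150.3 CPM in the Nkx intact libraries, with Nkx intact 2 the higher, 0.561 and 0 CPM after castration, and 4.98 and 0 CPM in the Clu libraries. Over 6 neuroendocrine markers it was 68.0 and 70.3 CPM, 31.3 and 12.9 CPM, and 17.7 and 22.2 CPM. Of the 19 leukocyte markers, 2 and 4 were at 0 in the Nkx intact libraries, 0 and 1 after castration, and 4 and 7 in the Clu libraries, and no fibroblast or smooth muscle marker was at 0 in any library. By the same edgeR test, 7 of the 16 fibroblast and smooth muscle markers were higher after castration and 0 lower, against 8.61% of all tested genes. In Clu intact against Nkx intact, 6 of the 12 endothelial markers were higher and 0 lower, against 11.3%. The part of this marker RNA in the results below was not tested, and in bulk RNA fewer cells of a type and less RNA per cell cannot be told apart.

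Promoter sequences of the 10 genes were read from RefSeq on build GRCm38.p6, in windows of 300 bases that run from 250 before to 50 after the transcription start (11 windows, since Psat1 has 2). They were searched on both strands for TGATGNAA, the core of the ATF4-C/EBP composite element. It was found in 4 of the 10 genes, Asns, Chac1, Trib3 and Slc7a11, and in 3.97% of all 32851 promoter windows. The windows are chr6:7693160-7693459 (minus strand) for Asns, chr2:119350992-119351291 (plus strand) for Chac1, chr2:152344011-152344310 (minus strand) for Trib3 and chr3:50443564-50443863 (minus strand) for Slc7a11. They are shown because the core is the DNA element through which ATF4 is known to act, and they are printed 5′ to 3′ on the strand of the gene with the core, or its reverse complement, in capitals:
Asns: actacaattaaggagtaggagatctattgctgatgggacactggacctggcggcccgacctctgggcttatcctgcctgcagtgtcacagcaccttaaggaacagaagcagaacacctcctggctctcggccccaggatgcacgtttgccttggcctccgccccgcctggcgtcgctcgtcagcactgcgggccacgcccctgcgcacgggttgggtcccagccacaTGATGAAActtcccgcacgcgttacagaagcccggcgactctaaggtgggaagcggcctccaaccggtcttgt
Chac1: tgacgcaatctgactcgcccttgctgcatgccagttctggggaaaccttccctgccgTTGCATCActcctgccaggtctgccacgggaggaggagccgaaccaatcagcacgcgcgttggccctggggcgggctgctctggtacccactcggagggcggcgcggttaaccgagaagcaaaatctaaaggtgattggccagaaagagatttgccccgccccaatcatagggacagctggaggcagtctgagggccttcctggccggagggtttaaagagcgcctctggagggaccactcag
Trib3: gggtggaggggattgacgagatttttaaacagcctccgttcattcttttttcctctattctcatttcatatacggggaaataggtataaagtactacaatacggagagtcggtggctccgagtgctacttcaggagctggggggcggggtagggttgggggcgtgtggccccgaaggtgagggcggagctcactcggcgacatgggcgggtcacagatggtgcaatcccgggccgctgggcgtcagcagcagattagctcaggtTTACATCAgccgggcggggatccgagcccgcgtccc
Slc7a11: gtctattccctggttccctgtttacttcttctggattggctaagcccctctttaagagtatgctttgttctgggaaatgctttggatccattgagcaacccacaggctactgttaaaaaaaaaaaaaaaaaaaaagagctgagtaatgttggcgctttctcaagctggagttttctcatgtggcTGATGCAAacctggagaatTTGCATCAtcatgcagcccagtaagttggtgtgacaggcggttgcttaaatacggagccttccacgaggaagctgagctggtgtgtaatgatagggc
The core begins at base -23 from the start in Asns, at -193 in Chac1 and at +15 in Trib3, counted from the end that is 5′ on the gene's strand, with -1 the base before the start. Slc7a11 holds it at -66 and again, inverted, at -47. In Asns the letters are TGATGAAA, in Trib3 TGATGTAA on the opposite strand, and in Chac1 and both places of Slc7a11 TGATGCAA. The ER stress element of ATF6, searched the same way on both strands, was in none of the 10 genes and in 0.119% of all windows. A match is only a run of letters, and its absence says nothing beyond this window.

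Nkx intact cells had the highest mean level of 9 of the 10 genes, all but Slc7a11, whose highest mean was in Clu intact. The lowest mean lay in Nkx castrate for 5 genes (Ddit3, Asns, Chac1, Psat1, Phgdh), in Clu intact for 4 (Atf4, Trib3, Sesn2, Ddit4) and in Nkx intact for 1 (Slc7a11). Per kilobase of merged exon, Atf4 was the most abundant of the 10 in every group, with a mean level of 307 CPM per kb in Nkx intact, 275 in Nkx castrate and 109 in Clu intact. Next came Ddit4 with 63.5 CPM per kb in Nkx intact and 39.6 in Nkx castrate, while in Clu intact Phgdh (45.5) stood above Ddit4 (35.3). Slc7a11 was the least abundant, at 0.469, 0.500 and 1.39 CPM per kb in Nkx intact, Nkx castrate and Clu intact, although its annotated exons of 13922 bases include a long untranslated region that lowers a value per length.

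**Figure D1:**
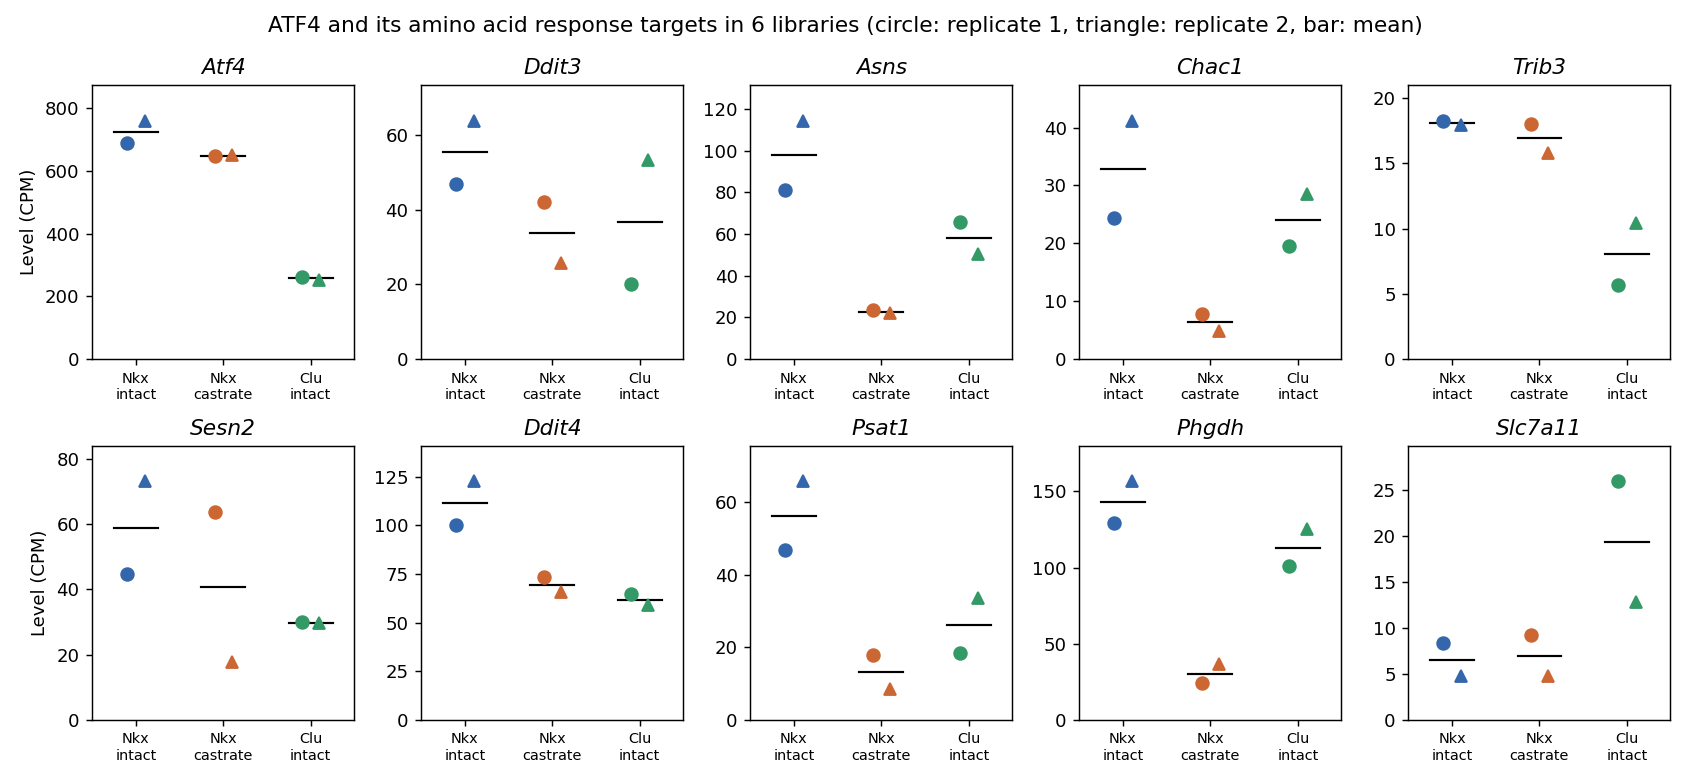
Level of each of the 10 genes in each library (CPM, linear axis from 0), with circles for replicate 1, triangles for replicate 2 and a bar at the mean of the 2 libraries of a group. Asns, Chac1, Psat1 and Phgdh are lowest in Nkx castrate, and Atf4 drops in Clu intact to 252 and 262 CPM.

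Atf4 itself was lower in Clu-marked cells and did not pass the test after castration. Its level was 690 and 760 CPM in the Nkx intact libraries, 646 and 649 CPM after castration, and 262 and 252 CPM in the Clu libraries. The libraries of Clu intact lay far below all 4 Nkx libraries, and those of Nkx castrate just below those of Nkx intact. In Clu intact it was 2.82-fold lower than in Nkx intact (log2 fold change -1.50, SE 0.17, adjusted p = 0.00187) and 2.52-fold lower than in Nkx castrate (log2 fold change -1.33, SE 0.17, adjusted p = 0.0021) by the quasi-likelihood F test of edgeR, adjusted by the Benjamini-Hochberg method. Between Nkx castrate and Nkx intact the log2 fold change was -0.16 with a 95% interval from -0.54 to 0.21 (adjusted p = 0.609, edgeR). Both calls were also made with any 1 of the 6 libraries left out, at adjusted p of up to 0.0344 and 0.0355 (edgeR).

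The genes of serine synthesis and of asparagine synthesis fell after castration. Phgdh, the enzyme that opens the serine synthesis pathway from a glycolytic intermediate, was at 130 and 157 CPM in the Nkx intact libraries, 24.0 and 36.7 CPM after castration, and 101 and 125 CPM in the Clu libraries. Both castrate libraries lay well below the other 4, and the Clu intact libraries lay just below those of Nkx intact. Phgdh fell 4.72-fold in Nkx castrate against Nkx intact (log2 fold change -2.24, SE 0.25, adjusted p = 0.00269, edgeR) and was 3.73-fold higher in Clu intact than in Nkx castrate (log2 fold change 1.90, SE 0.25, adjusted p = 0.00267). Both calls were also made with any 1 library left out (adjusted p of up to 0.0394 and 0.0217, edgeR). Between Clu intact and Nkx intact its log2 fold change was -0.34, with a 95% interval from -0.90 to 0.22. A pseudogene of Phgdh is annotated in the mouse genome, so the assignment of reads that both could give is uncertain. Pseudogenes were not searched for systematically, so the other genes may have them too.

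Psat1, the aminotransferase of the next step, was at 46.8 and 65.7 CPM in the Nkx intact libraries, 18.0 and 8.43 CPM after castration, and 18.5 and 33.6 CPM in the Clu libraries. The Nkx intact libraries were the highest, and Clu intact 1 barely exceeded Nkx castrate 1. Psat1 fell 4.24-fold after castration (log2 fold change -2.08, SE 0.43, adjusted p = 0.0255, edgeR), while its log2 fold changes of -1.11 (SE 0.42, adjusted p = 0.141) in Clu intact against Nkx intact and 0.97 (SE 0.42, adjusted p = 0.157) against Nkx castrate did not pass. The former passed without Nkx castrate 1 (adjusted p = 0.0124, edgeR) or Nkx castrate 2 (adjusted p = 0.0153). Its call after castration was lost without Nkx intact 1 (adjusted p = 0.0907, edgeR) and without Nkx intact 2 (adjusted p = 0.187). Without Nkx castrate 1 its log2 fold change was -2.74 after castration, and that of Clu intact against Nkx castrate was 1.62 and passed (adjusted p = 0.00833, edgeR).

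Asns, asparagine synthetase, which makes asparagine from aspartate and glutamine, was at 81.0 and 114 CPM in the Nkx intact libraries, 23.4 and 22.0 CPM after castration, and 65.6 and 50.4 CPM in the Clu libraries. The 3 groups did not overlap, with Clu intact in between. It fell 4.30-fold after castration (log2 fold change -2.10, SE 0.25, adjusted p = 0.00314, edgeR) and was 2.55-fold higher in Clu intact than in Nkx castrate (log2 fold change 1.35, SE 0.24, adjusted p = 0.00884, or 0.0657 without Clu intact 1). Its log2 fold change between Clu intact and Nkx intact, -0.75 (SE 0.24, adjusted p = 0.0874), did not pass, but did without Nkx castrate 1 (adjusted p = 0.0197, edgeR) and without Nkx castrate 2 (adjusted p = 0.0244).

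Chac1, which degrades glutathione inside the cell, followed the same order of group means. Its level was 24.4 and 41.2 CPM in the Nkx intact libraries, 7.86 and 4.88 CPM after castration, and 19.5 and 28.5 CPM in the Clu libraries. The castrate libraries were the lowest, and the intact groups overlapped. Chac1 fell 5.12-fold after castration (log2 fold change -2.36, SE 0.39, adjusted p = 0.0107, edgeR), a call lost without Nkx intact 2 (adjusted p = 0.103). It was 3.75-fold higher in Clu intact than in Nkx castrate (log2 fold change 1.91, SE 0.39, adjusted p = 0.0139, edgeR, or 0.103 without Clu intact 2), and its log2 fold change between Clu intact and Nkx intact was -0.45 with a 95% interval from -1.31 to 0.40.

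Slc7a11, the cystine importer of the exchanger xCT, imports the cystine from which glutathione is made. It was at 8.32 and 4.74 CPM in the Nkx intact libraries, 9.20 and 4.73 CPM after castration, and 25.9 and 12.8 CPM in the Clu libraries. Both Clu intact libraries lay above all 4 Nkx libraries, but they differed 2.02-fold from each other. Clu intact 1 also had the highest sum of endothelial markers, 1167 CPM against 473 CPM in Clu intact 2. Nkx castrate 1, with 515 CPM of these markers, had less Slc7a11 than Clu intact 2. A part of such RNA in the level of Slc7a11 was not tested. The log2 fold changes of 1.57 (SE 0.53, adjusted p = 0.105) against Nkx intact and 1.47 (SE 0.52, adjusted p = 0.0933) against Nkx castrate did not pass in edgeR. The former passed without Nkx castrate 1 (adjusted p = 0.0167, edgeR) and without Nkx castrate 2 (adjusted p = 0.019), and the latter without Nkx castrate 1 (log2 fold change 2.03, adjusted p = 0.0176, edgeR).

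Among the regulators of growth and death, Ddit4 was called in 1 of 3 comparisons and Ddit3, Trib3 and Sesn2 in none with all 6 libraries in edgeR. Ddit4, also called REDD1, an inhibitor of mTORC1 that glucocorticoids and hypoxia also induce, was at 100.1 and 123 CPM in the Nkx intact libraries, 73.4 and 65.6 CPM after castration, and 64.5 and 59.3 CPM in the Clu libraries. The Nkx intact libraries were above the other 4. It was 1.80-fold lower in Clu intact than in Nkx intact (log2 fold change -0.85, SE 0.19, adjusted p = 0.027, edgeR), and the log2 fold change after castration was -0.68 (SE 0.19, adjusted p = 0.0686). The call was lost on leaving out Nkx intact 1 (adjusted p = 0.0925, edgeR), Nkx intact 2 (adjusted p = 0.206), Clu intact 1 (adjusted p = 0.154) or Clu intact 2 (adjusted p = 0.246), and the value after castration passed without Nkx castrate 1 (adjusted p = 0.0273).

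Trib3, a pseudokinase that is induced by ATF4 and restrains it in turn, was at 18.3 and 18.0 CPM in the Nkx intact libraries, 18.0 and 15.8 CPM after castration, and 5.65 and 10.4 CPM in the Clu libraries. The Nkx groups overlapped and Clu intact was below both. Its log2 fold changes in Clu intact were -1.17 (SE 0.36, adjusted p = 0.0832) against Nkx intact and -1.07 (SE 0.36, adjusted p = 0.0812) against Nkx castrate, neither called by edgeR. The former passed without Nkx castrate 1 (adjusted p = 0.0269, edgeR) and without Nkx castrate 2 (adjusted p = 0.0296).

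Ddit3, the gene of the transcription factor CHOP, which promotes cell death under lasting stress, was at 47.0 and 63.9 CPM in the Nkx intact libraries, 42.0 and 25.7 CPM after castration, and 20.2 and 53.3 CPM in the Clu libraries. Its Clu intact libraries differed 2.65-fold and spanned the whole of the castrate group. The log2 fold change after castration was -0.71 with a 95% interval from -1.75 to 0.33. In Clu intact against Nkx intact it was -0.59, or -1.44 without Clu intact 2 (adjusted p = 0.134, edgeR), and against Nkx castrate it was 0.12, or -0.72 without Clu intact 2. In the GENCODE annotation 68 bases of the exons of Ddit3 overlap those of Mars, the older symbol of Mars1, on the opposite strand, and the strand setting of the counting is not given, so reads there cannot be assigned.

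Sesn2, sestrin 2, a leucine sensor that restrains mTORC1, showed the widest spread between libraries of a group. It was at 44.6 and 73.1 CPM in the Nkx intact libraries, 63.6 and 17.7 CPM after castration, and 29.9 and 29.7 CPM in the Clu libraries. Nkx castrate 1, the library with the most leukocyte and stromal marker RNA, was 3.59-fold above Nkx castrate 2. The log2 fold change after castration was -0.53 (SE 0.52, adjusted p = 0.602, edgeR), -1.73 and called without Nkx castrate 1 (adjusted p = 0.00246) and 0.11 without Nkx castrate 2. Between Clu intact and Nkx castrate it was -0.45, turning to 0.75 without Nkx castrate 1 and to -1.09 without Nkx castrate 2 (adjusted p = 0.0127, edgeR), and between Clu intact and Nkx intact it was -0.98 (adjusted p = 0.287), called without Nkx castrate 1 (adjusted p = 0.0103) and without Nkx castrate 2 (adjusted p = 0.0108).

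Counted together, 4 of the 10 genes were called in Nkx castrate against Nkx intact, all 4 lower, where 8.61% of all tested genes were called (4.02% higher and 4.59% lower). For Clu intact against Nkx intact, 2 were called and both were lower, against 11.3% of all tested genes (6.29% higher and 5% lower). For Clu intact against Nkx castrate, 3 were higher and 1 lower, against 16.9% of all tested genes (8.82% higher and 8.1% lower). At an unadjusted p under 0.05 the edgeR test gave 5, 6 and 6 of the 10 in the same order. DESeq2 called 5 lower and 0 higher, then 4 lower and 1 higher, then 3 higher and 2 lower. The 10 genes were chosen with earlier results of these data known, so setting their counts beside the shares is no test.

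The libraries of the compared groups did not overlap for 7 genes after castration, all lower, where 49.9% of all tested genes did not overlap (25.4% higher and 24.6% lower). They did not overlap for 8 genes between Clu intact and Nkx intact, 1 higher and 7 lower, against 63.2% (31.9% higher and 31.3% lower). Between Clu intact and Nkx castrate they did not overlap for 8 genes, 5 higher and 3 lower, against 61.4% (31.5% higher and 30% lower). The median log2 fold change of the 10 genes was -0.70, -0.80 and 0.54 in the 3 comparisons, against 0.05, -0.01 and -0.0030 over all tested genes. Each group serves in a pair of these comparisons, so they are not independent of each other.

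The counts moved with single libraries, also with those of the group outside a comparison, which enter the common estimate of the spread. The number lower after castration was 2 without Nkx intact 2 and 6 without Nkx castrate 1. The number lower in Clu intact against Nkx intact was 1 without any one of the Nkx intact or Clu intact libraries, and 6, with 1 higher, without either castrate library. Against Nkx castrate, the number higher was 5 when Nkx castrate 1 was omitted and 2 when either Clu library was, and the number lower was 2 without Nkx castrate 2.

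**Figure D2:**
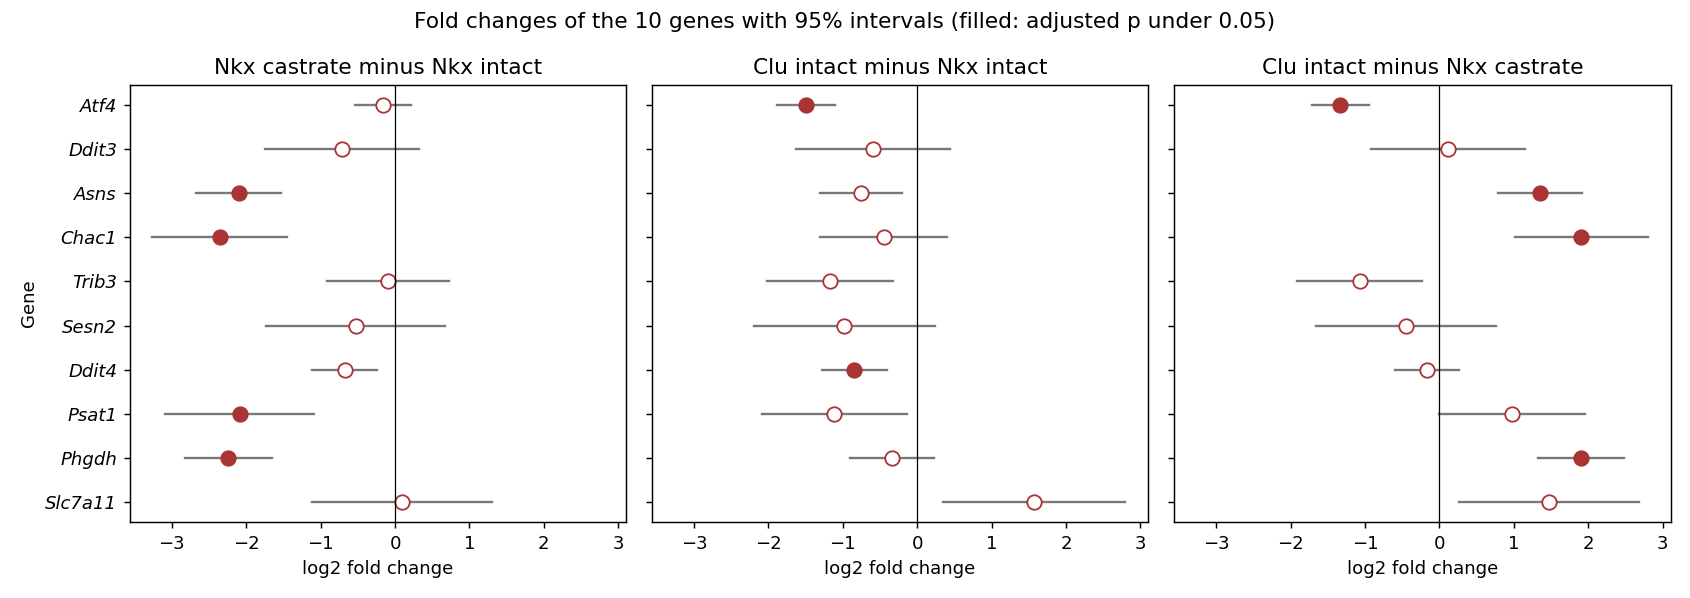
log2 fold change of each gene in the 3 comparisons (x axis), with a line for the 95% interval and a filled point where the adjusted p is under 0.05. Asns, Chac1, Psat1 and Phgdh lie near -2 after castration with intervals below 0, and Atf4 is called only in the comparisons with Clu intact.

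**Figure D3:**
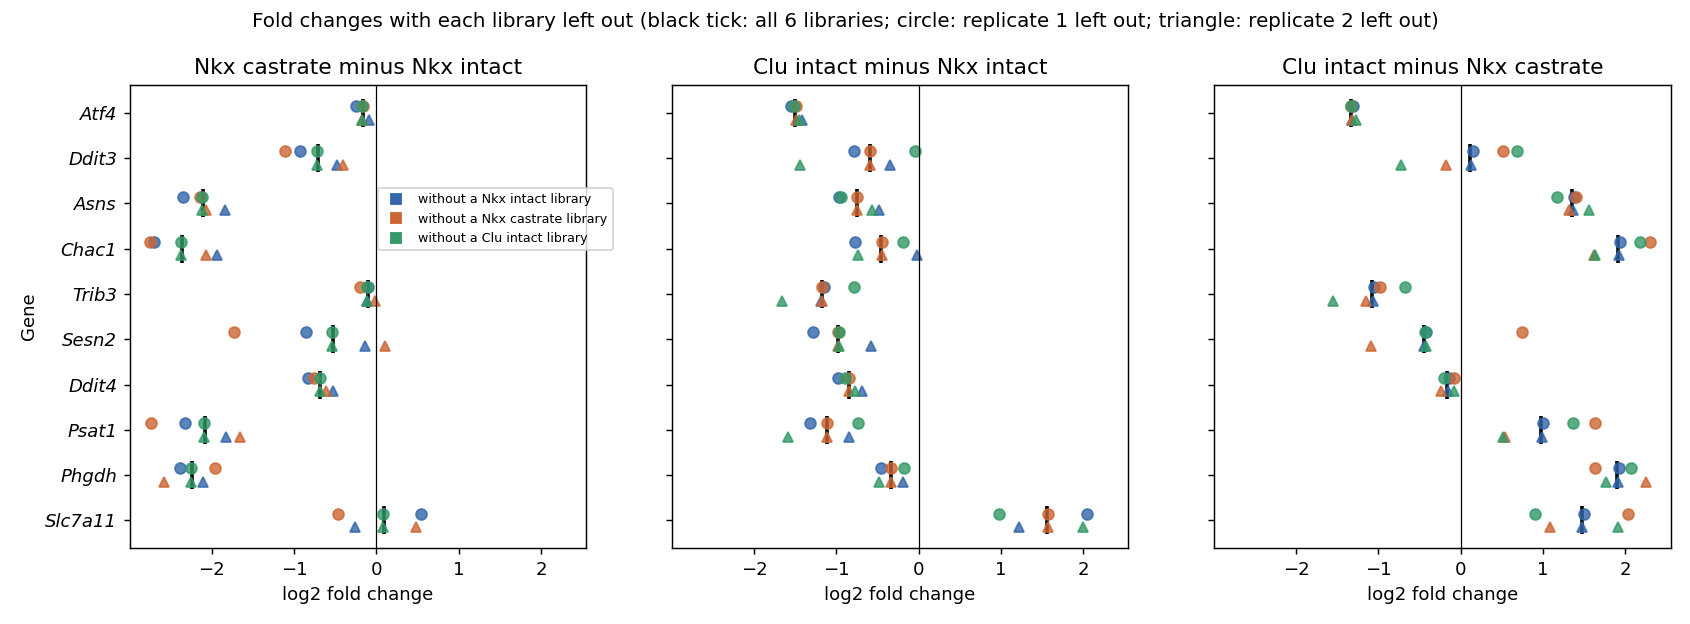
log2 fold change of each gene (x axis) with all 6 libraries (black tick) and with each library left out (circles and triangles, coloured by the group of the omitted library). Values for Atf4 stay close together, while Sesn2 moves from -0.53 to -1.73 without Nkx castrate 1 and to 0.11 without Nkx castrate 2 after castration.

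The libraries of a group differed in these genes by more than the median tested gene in each group. The median absolute log2 ratio between the libraries of a group was 0.47, 0.64 and 0.46 for the 10 genes in Nkx intact, Nkx castrate and Clu intact, and 0.30, 0.46 and 0.25 for all tested genes, and no test was made of this difference. Nkx intact 2 was the higher library of its group for 8 of the 10 genes, and Nkx castrate 1 was the higher of its group for 8. In Clu intact each library was the higher for 5.

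Across the 6 libraries, which fall into the 3 groups and share their depth with every gene, the targets differed in how closely their log2 CPM followed that of Atf4. Trib3 (Pearson r = 0.89) and Ddit4 (r = 0.71) were the closest, and Sesn2 (0.43) and Ddit3 (0.34) were weaker. Psat1 (0.12), Asns (-0.05), Chac1 (-0.23) and Phgdh (-0.27) showed little relation to Atf4 over 6 libraries, and Slc7a11 (-0.84) ran the other way. The 5 genes outside the list most like Atf4 by this measure, of 9021 with a mean of at least 10 CPM, were Siah2, Ddx3y, Pom121, Atf3 and Egr2, with r between 0.995 and 0.998 over the same 6 libraries. By rank their likeness was looser, with Spearman's rho between 0.829 and 0.943. Among the genes compared, 168 exceeded 0.95. Atf3, a stress-induced bZIP factor and itself an ATF4 target, was at 2763 and 2597 CPM in the Nkx intact libraries, 2291 and 2062 CPM after castration, and 557 and 520 CPM in the Clu libraries. It was 4.98-fold lower in Clu intact than in Nkx intact (log2 fold change -2.32, SE 0.18, adjusted p = 0.000513, edgeR).

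Some other enzymes of serine, proline and one-carbon metabolism were also lower after castration. Of 16 such enzymes, 6 were called lower, none higher and 10 in neither direction with all 6 libraries, with a median log2 fold change of -0.57. Counts of this and the following lists stand against 8.61% of all tested genes called after castration, 11.3% between Clu intact and Nkx intact and 16.9% between Clu intact and Nkx castrate. The lists too were chosen with earlier results of these data known, so this is no test either. Aldh1l2, a mitochondrial enzyme of folate metabolism, fell from 30.7 ± 0.146 to 1.55 ± 0.421 CPM (SD, n = 2), a log2 fold change of -4.28 (SE 0.37), and Mthfd2, the mitochondrial folate dehydrogenase, fell from 68.7 ± 20.5 to 11.9 ± 3.70 CPM (SD, n = 2), a log2 fold change of -2.53 (SE 0.31). Psph, which completes serine synthesis, fell 6.19-fold and Pycr1, which completes proline synthesis, 8.34-fold. Adjusted p was 0.000999 for Aldh1l2, 0.00385 for Mthfd2, 0.0063 for Psph and 0.00452 for Pycr1 in edgeR, and leaving out Nkx intact 2 ended the calls of Psph (adjusted p = 0.0668) and Pycr1 (adjusted p = 0.0528) and left 2 enzymes lower. Relative to Nkx castrate, 5 of the 16 were higher and 1 lower in Clu intact (3 higher and 0 lower without either Clu intact library), and relative to Nkx intact 1 was higher and 2 lower (0 lower without any one Nkx intact or Clu intact library, 7 lower without either castrate library). Gldc, the glycine cleavage decarboxylase, was at 54.1 ± 13.1 CPM (SD, n = 2) in Clu intact against 1.41 ± 0.376 in Nkx intact and 2.82 ± 0.853 in Nkx castrate, called in both comparisons (adjusted p = 0.000512 and 0.000536, edgeR).

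Amino acid transporters that ATF4 is known to induce were among the genes lower in Clu-marked cells. Of 10 amino acid transporters tested, 4 were lower and none higher in Clu intact than in Nkx intact, or 1 to 2 lower without any one Nkx intact or Clu intact library. Slc7a5, the light chain of a large neutral amino acid exchanger, was at 306 ± 68.8 CPM in Nkx intact, 333 ± 40.3 in Nkx castrate and 104 ± 6.35 in Clu intact (SD, n = 2), 2.94-fold lower in Clu intact than in Nkx intact (adjusted p = 0.00405, edgeR). Slc3a2, the heavy chain that Slc7a5 and Slc7a11 share, was 2.42-fold lower (adjusted p = 0.00467, edgeR, with calls lost in 2 of 6 omissions of a library and adjusted p of up to 0.0665). Slc7a1 and Slc38a2 were 2.15-fold and 1.64-fold lower, each losing its call in 4 of 6 omissions (adjusted p of up to 0.144 and 0.265, edgeR). After castration 1 transporter fell, the glutamine carrier Slc1a5 (1.72-fold, adjusted p = 0.0256, lost in 4 of 6 omissions with adjusted p of up to 0.182), and in Clu intact against Nkx castrate 2 were higher and 3 lower. The latter counts were 0 higher and 1 lower when either Clu library was omitted, 3 higher and 3 lower when Nkx castrate 1 was, and 2 higher and 5 lower when Nkx castrate 2 was. The number lower after castration was 0 without Nkx intact 1, Nkx intact 2 or Clu intact 1, and 3 without Nkx castrate 1.

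Other genes known to respond to ATF4 moved in both directions after castration. Of 20 tested, 4 rose and 2 fell, with a median log2 fold change of -0.01. Nupr1, a small stress-induced chromatin protein, rose from 8.08 ± 1.28 to 246 ± 12.8 CPM (SD, n = 2), a log2 fold change of 4.93 (SE 0.22), and Stc2, a secreted glycoprotein, from 11.3 ± 2.25 to 203 ± 7.24 CPM (log2 fold change 4.17, SE 0.24). Gdf15, a secreted stress hormone, rose 16.6-fold and Vegfa, which hypoxia also induces, 4.74-fold. Gpt2, the mitochondrial alanine aminotransferase, fell 5.79-fold and Herpud1, a factor of protein degradation at the endoplasmic reticulum, 4.66-fold. Adjusted p in edgeR was 0.000111 for Nupr1, 0.000251 for Stc2, 0.000966 for Gdf15, 0.00221 for Vegfa, 0.00154 for Gpt2 and 0.00489 for Herpud1. Leaving out 1 library ended the call of Vegfa (adjusted p = 0.0507) and of Herpud1 (adjusted p = 0.0615), in both cases Nkx intact 2, and 4 genes were lower without either castrate library.

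Of these 20 genes, 6 were lower and 2 higher in Clu intact than in Nkx intact, and 8 were lower and 4 higher than in Nkx castrate. Nupr1 was 11.3-fold higher in Clu intact (91.2 ± 11.5 CPM, SD, n = 2) than in Nkx intact (adjusted p = 0.000256, edgeR). Cebpb, a bZIP partner of ATF4, was 3.85-fold lower (adjusted p = 0.0052, edgeR, lost in 2 of 6 omissions of a library with adjusted p of up to 0.0555). Gdf15 and Stc2 were 53.1-fold and 23.7-fold lower in Clu intact than in Nkx castrate (adjusted p = 0.000209 and 0.000147, edgeR). The number lower against Nkx intact was 1 to 3 without any one Nkx intact or Clu intact library and 12 without either castrate library, and the number higher against Nkx castrate was 2 without Clu intact 1 and 1 without Clu intact 2.

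**Figure D4:**
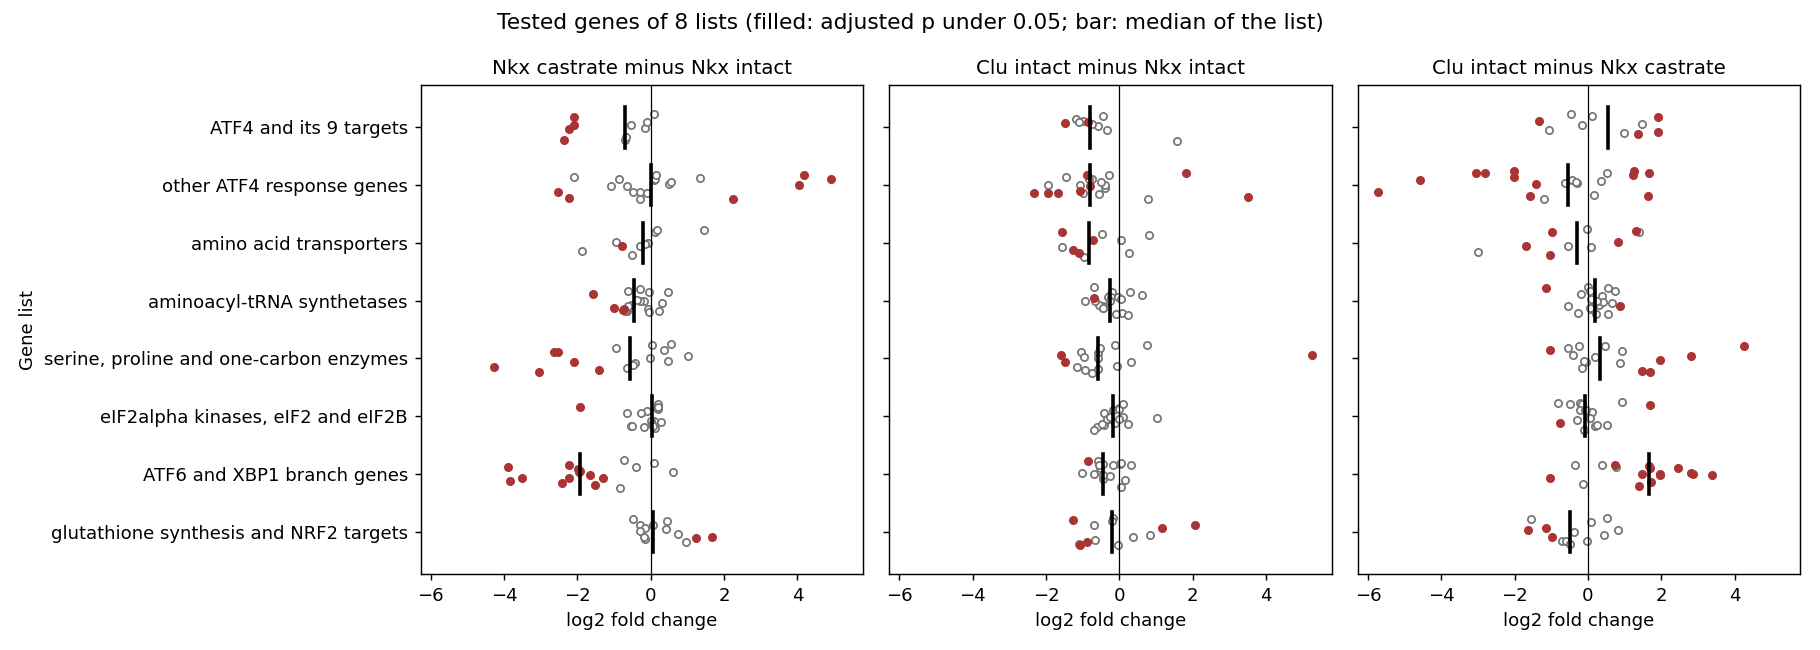
log2 fold change (x axis) of every tested gene of 8 lists in the 3 comparisons, filled where the adjusted p is under 0.05, with a bar at the median of each list and a random vertical offset within a list. After castration the 6 called serine, proline and one-carbon enzymes lie below 0, while Nupr1, Stc2 and Gdf15 lie above 4.

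The aminoacyl-tRNA synthetases, which charge tRNAs and include ATF4 targets, gave 4 lower and none higher of 20 after castration. Gars, the glycyl-tRNA synthetase, fell from 304 ± 12.1 to 103 ± 1.94 CPM (SD, n = 2), a log2 fold change of -1.56 (SE 0.16, adjusted p = 0.00195, edgeR). Mars1, Sars and Yars fell 2.00-fold, 1.70-fold and 1.67-fold, and each lost its call in 4 or 5 of 6 omissions of a library (adjusted p of up to 0.229, 0.207 and 0.229, edgeR), so that 1 synthetase was lower without any one Nkx intact or Clu intact library, and 6 and 7 were without Nkx castrate 1 and 2. Clu intact had 1 lower and none higher than Nkx intact, and 1 higher and 1 lower than Nkx castrate, both under the shares of 11.3% and 16.9% over all tested genes. The count against Nkx intact was 0 without any one Nkx intact or Clu intact library, and 6 lower and 1 higher without either castrate library. Against Nkx castrate it was 0 without either Clu intact library, 1 higher and 0 lower without either Nkx intact library, 2 higher and 2 lower without Nkx castrate 1, and 4 higher and 1 lower without Nkx castrate 2.

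Genes upstream of ATF4 were called at shares no higher than those over all tested genes (8.61%, 11.3% and 16.9%). Of 17 genes of the eIF2 kinases, eIF2, eIF2B and their regulators, 1 was lower after castration, 0 differed between Clu intact and Nkx intact, and 1 was higher and 1 lower in Clu intact than in Nkx castrate. After castration 2 were lower without Nkx castrate 2, between Clu intact and Nkx intact 1 was higher and 1 lower without either castrate library, and against Nkx castrate 0 were lower without any one Nkx intact or Clu intact library and 2 without either castrate library, with 2 higher on leaving out Nkx castrate 2. The one lower after castration was Dnajc3, an inhibitor of the eIF2 kinases that unfolded protein also induces, from 617 ± 117 to 161 ± 27.1 CPM (SD, n = 2; adjusted p = 0.00321, edgeR). None of the 4 kinases was called in edgeR. Eif2ak4, the amino acid sensor GCN2, had mean levels of 60.9 ± 22.7, 53.6 ± 3.65 and 45.9 ± 3.89 CPM in Nkx intact, Nkx castrate and Clu intact (SD, n = 2), and Eif2ak3, the endoplasmic reticulum kinase PERK, 99.4 ± 4.45, 67.9 ± 10.1 and 73.9 ± 5.55 CPM. Eif2ak1, the haem-regulated kinase, lay between 44.7 and 47.8 CPM in group means, and Eif2ak2, the RNA-activated kinase PKR, was at 28.8, 31.0 and 58.6 CPM in the same order, with adjusted p = 0.0554 for Clu intact against Nkx intact and 0.0592 against Nkx castrate.

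The other branches of the unfolded protein response, driven by ATF6 and XBP1, share stimuli with ATF4. Of 17 genes of these branches, 12 were lower and none higher after castration, and 12 were higher and 1 lower in Clu intact than in Nkx castrate. Hspa5, the chaperone BiP, went from 3473 ± 704 to 1408 ± 454 CPM after castration (SD, n = 2; log2 fold change -1.30, SE 0.31, adjusted p = 0.0431, edgeR, lost in 2 of 6 omissions of a library with adjusted p of up to 0.281). Xbp1 mRNA was at 171 ± 39.1, 182 ± 1.61 and 143 ± 8.69 CPM in Nkx intact, Nkx castrate and Clu intact and was not called. Against Nkx intact, 1 of the 17 was lower in Clu intact and none higher (0 lower without any one Nkx intact or Clu intact library, 4 lower without either castrate library), and the number lower after castration was 5 without Nkx intact 2. The number higher against Nkx castrate was 8 without Clu intact 2, and the number lower there was 0 without any one Nkx intact or Clu intact library.

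A list of 13 genes around glutathione synthesis and NRF2, another regulator of Slc7a11, also held Slc3a2 and Cd44. It gave 2 higher and none lower after castration, and 2 higher and 3 lower between Clu intact and Nkx intact. Cd44 was among those higher in each of these comparisons. Between Clu intact and Nkx castrate 3 were lower and none higher. Of all tested genes, 8.61%, 11.3% and 16.9% were called in the same order. Relative to Nkx intact, the number lower was 0 without Nkx intact 1 or Clu intact 2 and 1 without Nkx intact 2 or Clu intact 1, and the number higher was 1 without Nkx intact 1, Nkx intact 2 or Clu intact 1. Relative to Nkx castrate, the number lower was 1 without Clu intact 1 and 0 without Clu intact 2, and 2 were higher when Nkx castrate 1 was omitted and 1 when Nkx castrate 2 was. After castration, 4 were higher and 1 lower without Nkx castrate 1. Nfe2l2, the gene of NRF2, was at 176 ± 2.42, 184 ± 7.06 and 83.9 ± 0.973 CPM in Nkx intact, Nkx castrate and Clu intact (SD, n = 2). It was 2.10-fold lower in Clu intact than in Nkx intact (adjusted p = 0.00499, edgeR, lost in 4 of 6 omissions of a library with adjusted p of up to 0.0721). The 2 genes higher after castration, Srxn1 and Cd44, were no longer called when either Nkx intact library was omitted (adjusted p of up to 0.0733 and 0.199, edgeR).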

How the data were processed

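Each library was made from 2 ng of total RNA of sorted cells with a stranded low-input kit, per the labels' protocols. The authors deposited raw counts for 24498 gene symbols in 6 libraries, 4599 of them without a count. The submitters' processing notes name STAR 2.7.9a, FastQC 0.11.9, featureCounts of Subread 2.0.1 and the build GRCm39. How strand, molecular identifiers and multiply aligned reads were handled, and which annotation was counted, is not given in these sources.

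Low genes were removed by filterByExpr (13846 remained), libraries were scaled by TMM, and a model with 3 group means (3 residual degrees of freedom) was fitted in edgeR 4.0.16 under R 4.3.3. Comparisons used its quasi-likelihood F test, two-sided, and Benjamini-Hochberg adjustment over all tested genes, with calls at an adjusted p under 0.05. An SE is the absolute log2 fold change over the square root of F, and 95% intervals rest on it. Exon lengths are those of GENCODE M21, an earlier build. The code was tested on simulated data. Alternatives were DESeq2 1.42.0, limma-voom (limma 3.58.1), other scalings and filters, only the groups compared, a replicate block, a 1.5-fold minimum, and omission of each library in turn.

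The 10 genes and the gene lists were chosen with earlier results of these data known. From each list, named genes come from the up to 4 called with the largest change per direction and comparison. To these were added Xbp1, Hspa5, the 4 eIF2 kinases and the 5 genes most like Atf4 by Pearson's r. Not every gene that met this rule is printed, and Epcam, Cdh1 and Pbsn serve as a check of the tissue.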

Additional observations from a re-analysis of the deposited data

How the results depend on the processing

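With 2 libraries a group, an omission leaves a lone library that is assumed to vary like the other groups. After castration, the number of genes called higher (556) and lower (636) was 1197 and 1103 with all genes that had a count, 1021 and 994 in DESeq2, 297 and 374 with only the 2 groups compared, and 251 and 286 with a 1.5-fold minimum, and omissions of 1 library gave 72 to 1220 and 137 to 1323. In Clu intact against Nkx intact, 871 and 692 became 1467 and 1198 with all genes, 1317 and 1136 in DESeq2, 1761 and 1548 with only the 2 groups compared, and 471 and 334 with a 1.5-fold minimum, with omissions from 214 to 1790 and from 157 to 1561. In Clu intact against Nkx castrate, 1221 and 1121 became 630 and 522 with a 1.5-fold minimum, the number lower was 1736 with all genes and 1725 in DESeq2, and omissions gave 417 to 2010 and 270 to 1844.

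Of the 10 genes, the number lower after castration (4) ranged from 2 to 6 over omissions. In Clu intact against Nkx intact, the number lower (2) was 6 with all genes or with only the 2 groups compared, 4 in DESeq2, 1 with a 1.5-fold minimum and 1 to 6 over omissions, and the number higher (0) was 1 with all genes, in DESeq2, with only the 2 groups compared and with the replicate block, and 0 to 1 over omissions. In Clu intact against Nkx castrate, the number higher (3) was 5 with all genes and 2 to 5 over omissions, and the number lower (1) was 2 with all genes and in DESeq2 and 1 to 2 over omissions. Other scalings, omission of the 20 most abundant genes, a minimum of 10 counts in every library and limma-voom left these 6 numbers as they were. The number lower after castration was 5 with all genes and in DESeq2, and 3 with a 1.5-fold minimum. With the replicate block, the number higher in Clu intact against Nkx castrate was 4. Scalings moved the median of all genes by less than 0.1 on the log2 scale.

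Directions turned for 4 values, all uncalled with all 6 libraries. Ddit3 in Clu intact against Nkx castrate (0.12) was at -0.0506 in limma-voom, -0.0090 with the replicate block, -0.19 without Nkx castrate 2 and -0.72 without Clu intact 2, over a range of -0.72 to 0.68. Sesn2 after castration turned to 0.11 without Nkx castrate 2 (range -1.73 to 0.11), and in Clu intact against Nkx castrate to 0.75 without Nkx castrate 1 (range -1.09 to 0.75). Slc7a11 after castration (0.10) was at -0.26 without Nkx intact 2 and -0.46 without Nkx castrate 1, over a range of -0.46 to 0.55. Same-numbered libraries of different groups deviated from their group means with r of 0.09, 0.04 and 0.23 across genes, and the replicate block changed no call of the 10 genes other than Slc7a11 in Clu intact, which passed against Nkx intact (adjusted p = 0.0263, edgeR) and Nkx castrate (adjusted p = 0.0228). These r values rest on 2 libraries a group and cannot settle whether the replicate numbers are pairs. The labels do not link those numbers across groups, so they are not taken as pairs. The cause of these shifts was not tested.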
